A study of Mus musculus with 18 samples.

Results

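The complement genes described here are 34 genes whose short names in the deposited table are those of complement components, their regulators and their receptors. The rule that picks them in the table uses names and no measured value, although the names were listed with earlier results of these data known, and all 34 were found among the 37303 genes of the table. Liver mRNA was profiled by RNA-Seq in 18 mice on the C57BL/6J background, in 6 groups of 3. The strains were wild type (WT), *Gcn2*-/-, with both copies of *Gcn2* deleted, and *Atf4*-/-, with both copies of *Atf4* deleted, and neither deletion was limited to the liver. Mice of each strain were injected into the peritoneum once a day, 8 times in all, with asparaginase (ASNase, 3 IU for each gram of body weight) or with an equal volume of phosphate buffered saline (PBS). Livers were taken 7.5 h after the last injection. Age is given as 8 to 16 weeks in the sample labels and as 8 to 12 weeks in the series design. By the labels, WT PBS, *Gcn2*-/- PBS and *Gcn2*-/- ASNase each held 1 male and 2 females, and the remaining groups 2 males and 1 female. ASNase, a leukaemia drug, is a bacterial enzyme that depletes asparagine and, more slowly, glutamine in blood. GCN2 is the kinase that phosphorylates eIF2 when amino acids run short, and ATF4 is a transcription factor that is then translated more.

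Complement is a cascade of plasma proteins that marks and kills microbes. Recognition molecules (C1q, mannose-binding lectins, ficolins, collectins) bind a surface and activate serine proteases, which cleave C4, C2, factor B and C3. Cleaved C3 and C5 release the anaphylatoxins, and C5b then gathers C6, C7, C8 and C9 into the membrane attack complex, a pore in the target membrane. Regulators in plasma and on host cells stop the cascade. Hepatocytes make most of the circulating components, whereas C1q is mainly made by macrophages and factor D by adipose tissue, and several components are positive acute phase proteins. By role, the genes comprised 7 recognition molecules, 7 proteases, 4 central components (*C3*, *C4a*, *C4b* and *Hc*, which encodes C5), 6 terminal components, 8 regulators and 2 anaphylatoxin receptors. By the cell known as their main source, 22 are made by hepatocytes, 7 by myeloid cells and 5 by other cells.

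Expression was given as FPKM, a read number scaled for transcript length and library size, as 1 value for each group with an interval. Values of single mice were not used here, so differences could not be set against the spread between mice, and no p-values are given. The interval of each value stands for its error, and its distance to the value had a median of 54.5% of the value over 173 member values above 3 FPKM. Genes counted as eligible if both groups had an estimate above 0 and at least 1 of them was over 3 FPKM. An eligible gene was called when its log2(FPKM + 0.1) differed by more than 1.5 and the intervals did not overlap. The pseudocount understates the fold of low genes. Of the 34 genes, 33 had an estimate in every group and 29 of these were over 3 FPKM in at least 1 group. *C7*, *Cd46*, *C5ar1* and *C3ar1* were at or under 3 FPKM in all groups. *C3*, the protein on which all complement pathways converge, had no estimate in *Gcn2*-/- livers under ASNase or in either *Atf4*-/- group. The status given there was HIDATA instead of OK, so the missing value does not mean that *C3* was low or absent. In the groups with an estimate it was at 2426 to 3643 FPKM.

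Markers of hepatocytes were abundant in every group, with a summed level of 25466 to 47918 FPKM over the 12 of 15 markers that had an estimate throughout, and none of them was at 0. The sum went from 47918 to 28325 FPKM after ASNase in *Gcn2*-/- livers and from 40168 to 25466 FPKM in *Atf4*-/- livers, against 45333 to 36759 FPKM in WT. The median of the same 12 went from 1524 to 1868 FPKM, from 1446 to 1519 FPKM and from 1299 to 1205 FPKM in turn. In *Gcn2*-/- livers 9 of 13 eligible markers were lower and 4 higher, and in *Atf4*-/- livers 7 of 12 were lower and 5 higher. *Fgg*, outside the sum for want of an estimate, went from 3451 to 7710 FPKM in *Gcn2*-/- livers. In *Atf4*-/- livers *Apoa2* was at 13637 FPKM under PBS and 3546 FPKM under ASNase and *Ttr* at 3541 and 854 FPKM, beside the hepatocyte-made genes described below. *Rbp4* and *F2* were no lower there, and *Ambp* went from 1874 to 3526 FPKM and *Tat* from 952 to 2013 FPKM. Of the 12 markers eligible in that strain 3 were over 2-fold lower and none was called, where 7.37% of all genes were called. The part of these changes in the results was not tested. *Atf4* was at 50.4 to 68.1 FPKM in the WT and *Gcn2*-/- groups, and at 32.3 FPKM under PBS and 29.3 FPKM under ASNase in *Atf4*-/- livers, lower than in the other strains but not at 0. *Eif2ak4*, which encodes GCN2, was at 2.31 and 2.96 FPKM in the libraries labelled *Gcn2*-/- and at 3.04 and 2.39 FPKM in WT, each under PBS and ASNase in turn, so its gene-level value does not separate these strains. Values over a whole gene also count exons outside a deleted stretch and do not check either deletion. From read density plots, the study reported that an exon of *Gcn2* was absent in *Gcn2*-/- mice and that *Atf4* was absent in *Atf4*-/- mice. It also assessed *Atf4* expression by RT-qPCR. Those plots and measurements were not used here, and strain names follow the labels. The summed level of 4 Y-linked genes was 19.7 to 21.9 FPKM in the groups with 1 male and 35.2 to 45.9 FPKM in those with 2.

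The ASNase response was small in WT livers. None of the 30 eligible complement genes was called, beside 0.881% of all eligible genes, and none was over 2-fold higher or lower, beside 2.04% and 0.892% of all genes. Of the 30 genes, 27 were lower and 3 higher, with a median log2 difference of -0.25 against -0.01 over all 9084 eligible genes. In *Gcn2*-/- livers 0 of 28 were called (3.69% of all genes), 4 were over 2-fold higher (6.35%) and 1 was over 2-fold lower (7.77%). The 4 were *C2*, *C4b*, *Cfb* and *Cd55*, and the 1 was *Colec11*. In *Atf4*-/- livers 4 of 28 were called, all lower, where 7.37% of all genes were called in either direction. These were *C6*, *C8g*, *C9* and *Colec11*. A further 6 genes, *C8a*, *C8b*, *Mbl1*, *Mbl2*, *Cd59a* and *Fcna*, brought those over 2-fold lower to 10 of 28 (12.8% of all genes), and *C4bp* was the 1 gene over 2-fold higher (10.9%). The median was 0.06 in *Gcn2*-/- livers, where that of all genes was 0.02, and -0.41 in *Atf4*-/- livers, where that of all genes was 0.08.

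**Figure D1:**
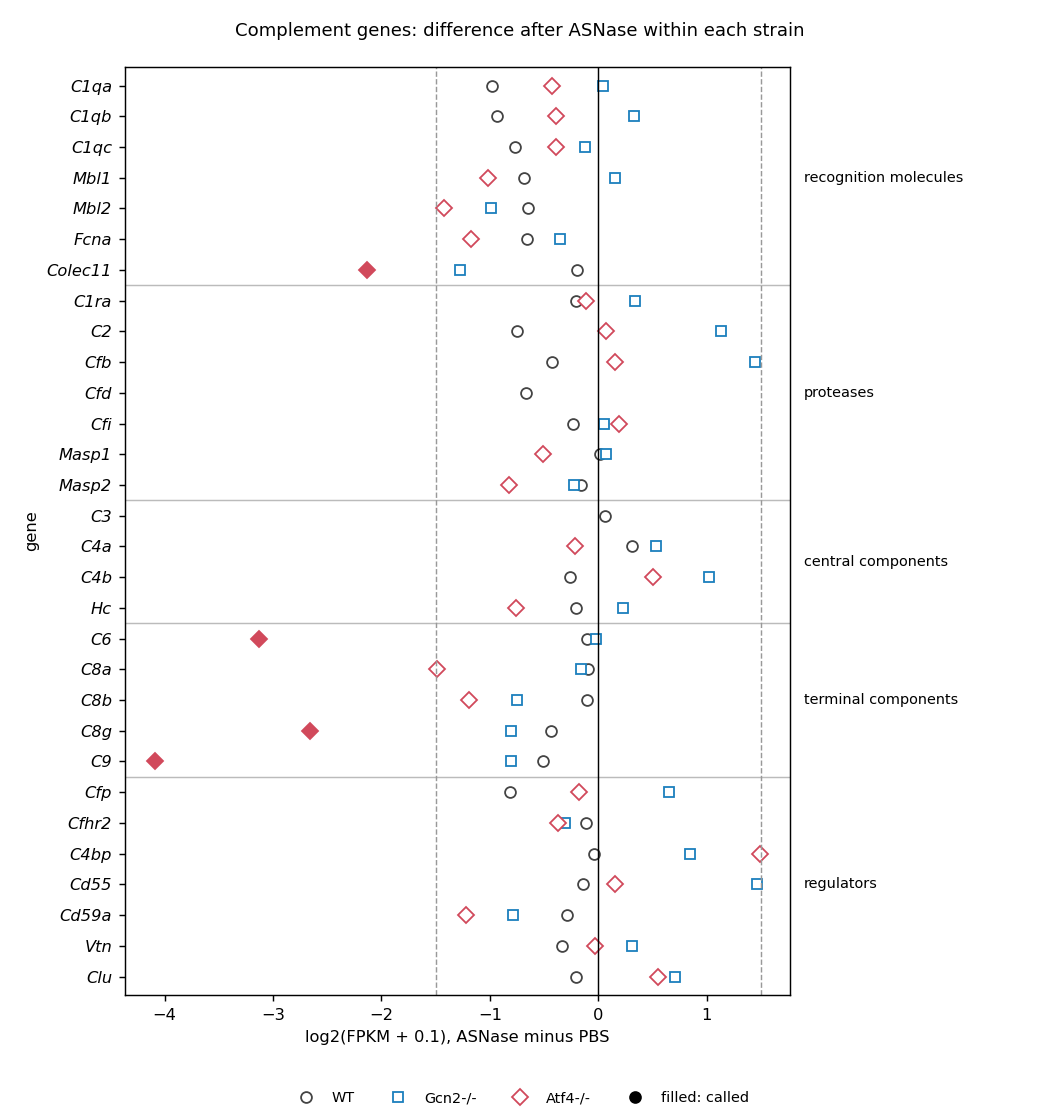
Difference in log2(FPKM + 0.1) between ASNase and PBS livers (horizontal axis) for each eligible complement gene, ordered by role, in WT (circles), *Gcn2*-/- (squares) and *Atf4*-/- mice (diamonds). Filled points were called, and dashed lines mark differences of -1.5 and 1.5. The filled points are *C6*, *C8g*, *C9* and *Colec11*, all in *Atf4*-/- livers, between -4.09 and -2.13.

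The terminal components carried 3 of those 4 genes. *C9*, whose product polymerises into the wall of the pore, was at 203 FPKM under PBS and 142 FPKM under ASNase in WT livers, at 233 and 134 FPKM in *Gcn2*-/- livers, and at 407 and 23.8 FPKM in *Atf4*-/- livers. The *Atf4*-/- ASNase value stood below all others, and its interval (6.59 to 41.1 FPKM) overlapped that of no other group. *C9* fell 17.1-fold in *Atf4*-/- livers after ASNase, a log2 difference of -4.09. Its interval under PBS in that strain was 140 to 674 FPKM.

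*C6*, which binds the new C5b, was at 37.9 and 35.4 FPKM under PBS and ASNase in WT livers, at 20.6 and 20.2 FPKM in *Gcn2*-/- livers, and at 108 and 12.2 FPKM in *Atf4*-/- livers. The highest and the lowest group were thus the same strain. *C6* fell 8.83-fold after ASNase in *Atf4*-/- livers (log2 difference -3.13), from an interval of 32.8 to 183 FPKM to one of 5.42 to 19.0 FPKM. The lower bound under PBS in *Atf4*-/- livers lay below both WT values, and the *Atf4*-/- ASNase interval overlapped those of WT and *Gcn2*-/- livers.

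*C8g* encodes the C8 gamma chain, a member of the lipocalin family. It was at 421 and 312 FPKM under PBS and ASNase in WT livers, at 457 and 261 FPKM in *Gcn2*-/- livers, and at 361 and 57.2 FPKM in *Atf4*-/- livers. The first 5 groups overlapped, and the *Atf4*-/- ASNase interval (9.49 to 105 FPKM) lay below all of them. The fall in *Atf4*-/- livers was 6.31-fold (log2 difference -2.66). *C8g* overlaps *Fbxw5* on the other strand, and the library kit does not mark strand, so reads from their shared ends cannot be told apart. *Fbxw5* was at 17.8 to 21.6 FPKM in the other groups and at 33.1 FPKM in *Atf4*-/- ASNase livers, and was thus higher where *C8g* was lower.

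The other chains of C8 were lower by less. *C8a* was at 154, 144, 195, 175, 342 and 122 FPKM. Values in sixes are given in this order from here on: WT, *Gcn2*-/- and *Atf4*-/- livers, PBS before ASNase within each strain. *C8b*, its neighbour on chromosome 4 in the opposite orientation, was at 126, 117, 186, 111, 220.5 and 96.6 FPKM. After ASNase in *Atf4*-/- livers *C8a* was 2.80-fold lower (log2 difference -1.48) and *C8b* 2.28-fold lower (-1.19), and in both the intervals overlapped. The ratio of *C8a* to *C8b* lay between 1.05 and 1.58 in all groups. The ratio of *C8g* to *C8a* was 2.74, 2.16, 2.34, 1.49, 1.06 and 0.468, so the *Atf4*-/- ASNase group was the only one in which *C8g* was listed below *C8a*. The ratio of *C9* to *C8a* was 0.195 in that group and 0.762 to 1.32 in the others. *C7*, which other tissues than liver mainly make, was at 0.167 to 0.883 FPKM and was eligible in no comparison. Over the 5 eligible terminal genes the median log2 difference after ASNase was -0.10, -0.75 and -2.66 in WT, *Gcn2*-/- and *Atf4*-/- livers in turn.

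**Figure D2:**
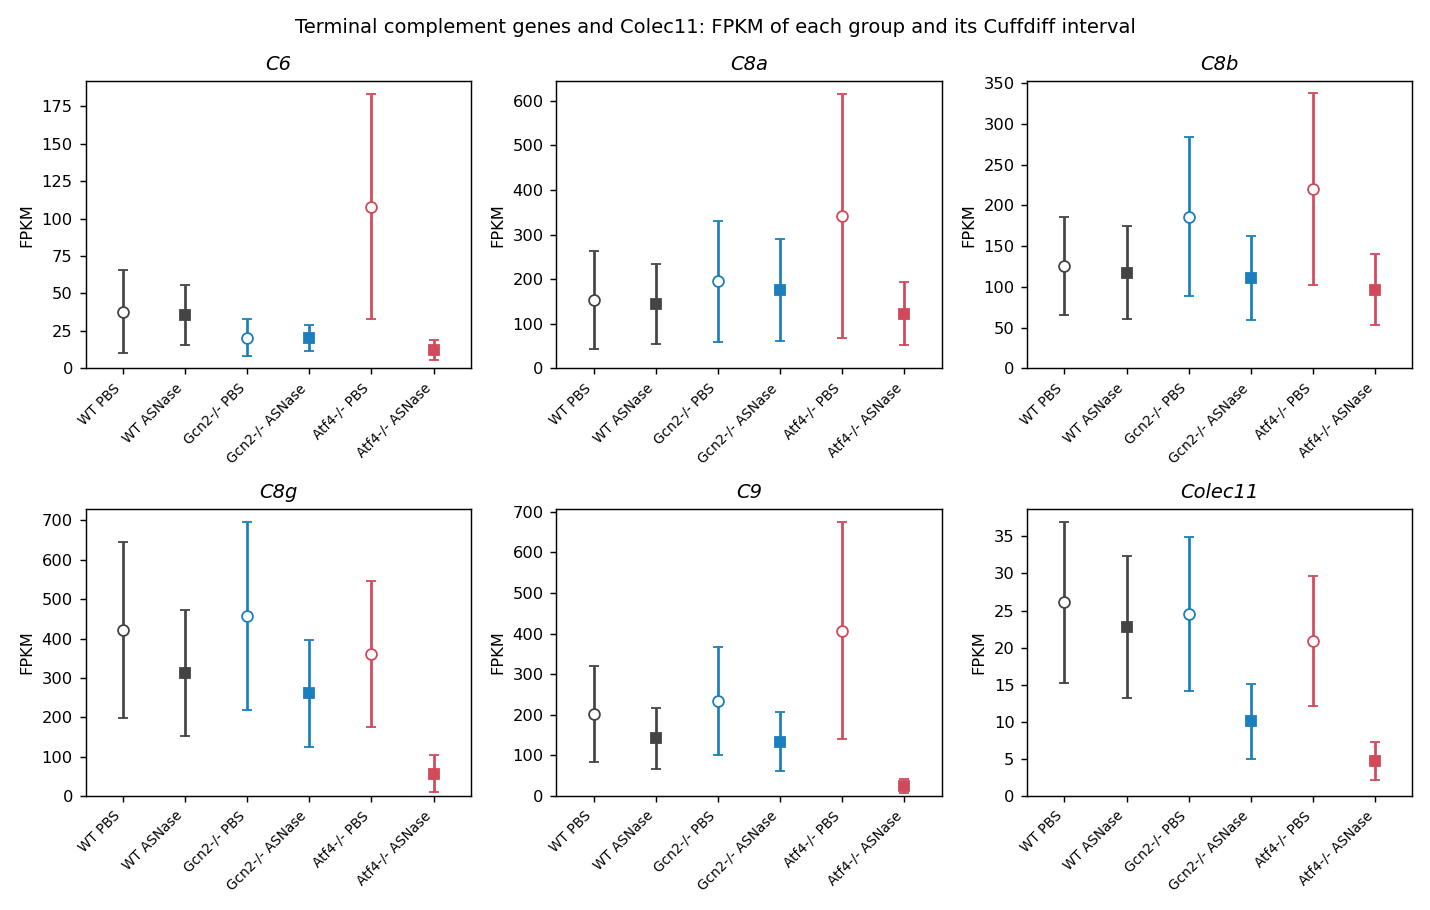
FPKM (vertical axis, from 0) of *C6*, *C8a*, *C8b*, *C8g*, *C9* and *Colec11* in the 6 groups, with open circles for PBS and filled squares for ASNase. Each point is the single value of a group and each bar its Cuffdiff interval. In *Atf4*-/- ASNase livers *C9* is at 23.8 FPKM and *C8g* at 57.2 FPKM, below the intervals of every other group.

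Genes known to differ between male and female mouse liver were followed because *C6* and *C8b* are among those higher in males. A list of 13 male-high genes was drawn up, and the 11 other than *C6* and *C8b* (among them *Cyp4a12a*, *Hsd3b5*, *Slco1a1* and *Mup20*) had a summed level of 1946, 2167, 1286, 510, 3141 and 258 FPKM. After ASNase 8 of 11 were called lower in *Atf4*-/- livers (7.37% of all genes were called in either direction), 7 of 9 eligible ones in *Gcn2*-/- livers (3.69%), where no terminal gene was called, and 0 of 10 in WT (0.881%). Under PBS 10 of 10 were lower in *Gcn2*-/- livers than in WT, with a median log2 difference of -1.68, while 4 of 5 terminal genes were higher, with a median of 0.20, and the other, *C6*, was lower at -0.88. In *Atf4*-/- livers under PBS both lists were mostly above WT, with 7 of 10 male-high genes higher (median 0.28) and 4 of 5 terminal genes higher (median 1.01). Female-high genes were lower as well after ASNase in *Atf4*-/- livers: 8 of 9 eligible ones were lower, 3 of them called, with a median of -2.13. *Atf4*-/- mice had 2 males of 3 under both PBS and ASNase, and WT mice 1 of 3 under PBS and 2 of 3 under ASNase. The part of sex or of these genes' regulation in the result was not tested.

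The members that fell are shown with the sequence before their start. Promoter windows from RefSeq (GRCm38.p6) were matched for 26 of the 34 genes, with 27 start sites. Printed are the stretches of the 250 bases before the start that lie outside every annotated exon, 5′ to 3′ on the strand of the gene. Capitals mark matches on either strand to 4 short motifs: TTGCNNAA (C/EBP), TTCNNNGAA (STAT), GTTAAT (HNF1) and CAAAG (HNF4).
*C9*, chr15:6445096-6445326, plus strand: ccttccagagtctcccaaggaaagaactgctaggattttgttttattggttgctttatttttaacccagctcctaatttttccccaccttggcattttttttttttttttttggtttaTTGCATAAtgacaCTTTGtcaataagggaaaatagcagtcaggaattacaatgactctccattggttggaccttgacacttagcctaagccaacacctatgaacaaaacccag
*C6*, chr15:4726960-4727174, plus strand: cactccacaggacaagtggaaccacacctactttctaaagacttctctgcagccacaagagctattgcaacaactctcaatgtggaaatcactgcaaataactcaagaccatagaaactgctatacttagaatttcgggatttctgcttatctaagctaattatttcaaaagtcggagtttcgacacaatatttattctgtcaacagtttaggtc
*C8g*, chr2:25501720-25501935, minus strand: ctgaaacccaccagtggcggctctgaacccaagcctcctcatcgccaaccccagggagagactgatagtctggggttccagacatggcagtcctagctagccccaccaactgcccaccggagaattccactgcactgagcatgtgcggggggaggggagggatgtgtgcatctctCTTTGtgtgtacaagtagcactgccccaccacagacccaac
*Colec11*, chr12:28623378-28623580, minus strand: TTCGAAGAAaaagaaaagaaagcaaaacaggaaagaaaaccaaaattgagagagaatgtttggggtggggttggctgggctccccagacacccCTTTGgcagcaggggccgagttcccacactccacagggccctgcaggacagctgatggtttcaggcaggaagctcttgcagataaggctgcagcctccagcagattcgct

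The *C9* window held a C/EBP match 132 bases and an HNF4 match 119 bases before the start, and these do not overlap. The *Colec11* window held a STAT match 250 bases and an HNF4 match 157 bases before the start. *C8g* held an HNF4 match 41 bases before the start shown and another 52 bases before its other start. *C6* held none of the 4 motifs. Among all 32851 promoter windows of this length, 9.56% held the C/EBP motif, 7.02% the STAT motif, 6.43% the HNF1 motif and 48.6% the HNF4 motif. Of the 27 windows of complement genes, 2, 4, 9 and 13 held them in the same order. A match of letters is not a bound site.

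Of the recognition molecules, *Colec11* was called. It encodes collectin-11, a lectin that binds sugars on microbes and partners with the MASP proteases. *Colec11* was at 26.1, 22.8, 24.5, 10.1, 20.9 and 4.68 FPKM. It fell 4.47-fold in *Atf4*-/- livers (log2 difference -2.13), from an interval of 12.2 to 29.6 FPKM to one that ended at 7.26 FPKM. In *Gcn2*-/- livers it was 2.44-fold lower after ASNase (-1.28), and there the intervals overlapped. The 4 groups other than the ASNase-treated deletion strains lay within 20.9 to 26.1 FPKM. Markers of stellate cells and fibroblasts, 10 genes of which none was at 0, had a summed level of 264, 252, 213, 172, 259 and 174 FPKM. After ASNase 6 of 7 eligible ones were lower in *Gcn2*-/- livers (median log2 difference -0.32) and 7 of 8 in *Atf4*-/- livers (-1.21), where 2 of 8 were called lower (7.37% of all genes in either direction). *Colec10*, a collectin of the same family, was at 8.16, 7.54, 5.61, 3.07, 10.2 and 4.34 FPKM. The part of the stellate cell markers in the *Colec11* values was not tested.

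The mannose-binding lectins, which hepatocytes make, were lowest in *Atf4*-/- ASNase livers. *Mbl2* was at 535, 342, 738, 372, 460.4 and 171 FPKM, and *Mbl1* at 244, 152, 238, 266, 279 and 137 FPKM. The log2 difference after ASNase was -0.65, -0.99 and -1.43 for *Mbl2* in WT, *Gcn2*-/- and *Atf4*-/- livers, and -0.69, 0.16 and -1.02 for *Mbl1*. None of these passed the call. All 7 recognition genes were lower after ASNase in WT and in *Atf4*-/- livers, with medians of -0.69 and -1.02, against 4 of 7 and -0.13 in *Gcn2*-/- livers.

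The 3 chains of C1q, the sensor of bound antibody, were close to one another in all groups. *C1qa* was at 61.9, 31.3, 40.6, 41.9, 59.9 and 44.5 FPKM, *C1qb* at 62.0, 32.4, 35.3, 44.5, 69.5 and 52.9 FPKM, and *C1qc* at 50.7, 29.6, 33.7, 30.9, 52.5 and 40.02 FPKM. The lowest value of each was in WT ASNase livers. After ASNase *C1qa* differed by -0.98 in WT, 0.05 in *Gcn2*-/- and -0.43 in *Atf4*-/- livers, with overlapping intervals throughout. *Fcna* encodes ficolin-A, a lectin of tissue macrophages. It was at 48.4, 30.6, 18.5, 14.5, 55.4 and 24.4 FPKM, so that both *Gcn2*-/- groups were lowest. Its difference from WT under PBS in *Gcn2*-/- livers was -1.39, and the intervals overlapped.

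Kupffer cells, the macrophages of the liver, were followed by 11 markers. Their summed level was 366, 228, 269, 403, 446 and 235 FPKM, and none of them was at 0. *Clec4f*, which marks Kupffer cells, was at 96.8, 52.4, 67.3, 15.9, 102 and 30.1 FPKM, and *Marco* went the other way, at 5.69, 3.45, 8.32, 118, 9.22 and 67.3 FPKM. After ASNase 10 of 11 markers were lower in WT, 4 of 11 in *Gcn2*-/- and 9 of 11 in *Atf4*-/- livers, and the C1q chains were lower in 3 of 3, 1 of 3 and 3 of 3 cases. Under PBS 9 of 11 Kupffer cell markers were lower in *Gcn2*-/- livers than in WT (median log2 difference -0.75), as were 8 of 8 endothelial markers (-1.03), 5 of them over 2-fold (2.32% of all genes), whose summed level was 128, 111, 64.1, 70.04, 142 and 100.3 FPKM with none at 0. Fewer cells of a type and less RNA per cell cannot be told apart in bulk liver. The part of either cell type in the values of *C1qa*, *C1qb*, *C1qc*, *Fcna* and *Cfp* was not tested.

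The proteases that build the convertases were highest in *Gcn2*-/- ASNase livers, and none was called after ASNase. *Cfb* encodes factor B, the protease of the alternative pathway. It was at 482, 359.8, 554, 1509, 681 and 756 FPKM. *C2*, its counterpart in the classical and lectin pathways, was at 177, 105, 233, 509, 183 and 192 FPKM. In *Gcn2*-/- livers *Cfb* was 2.72-fold higher (log2 difference 1.45) and *C2* 2.19-fold higher (1.13) after ASNase, while in *Atf4*-/- livers the differences were 0.15 and 0.07. The intervals were wide: that of *C2* reached down to 0 in all 6 groups, and that of *Cfb* was 0 to 3042 FPKM in *Gcn2*-/- ASNase livers. Both genes and the readthrough gene *Gm20547* were given 1 locus in the table, chr17:34856374-34898265, and *Gm20547* shares 53.2% of the 100-base windows of *C2* and 81.0% of those of *Cfb*. How reads were split between them is uncertain. The sum of the 3 was 663, 473, 797, 2030, 874 and 955 FPKM.

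*C1ra*, *Masp1*, *Masp2* and *Cfi* differed little. *C1ra*, a protease of the C1 complex that shares 34.5% of its windows with *C1rb*, was at 99.1 to 139 FPKM. *Masp1* and *Masp2*, the proteases of the lectin pathway, were at 21.7 to 31.0 and 100.4 to 178 FPKM, each lowest in *Atf4*-/- ASNase livers. *Cfi*, which encodes factor I and inactivates C3b and C4b, was at 235 to 448 FPKM, lowest in WT ASNase and highest in *Atf4*-/- ASNase livers. The largest of their differences after ASNase was -0.83, for *Masp2* in *Atf4*-/- livers.

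*Cfd*, which encodes factor D, the adipocyte-made protease that cleaves factor B, was the member called under PBS. It was at 10.8, 6.78, 0.641, 0.514, 1.91 and 2.99 FPKM. Both WT groups were above the 4 deletion groups. Under PBS *Cfd* was 16.8-fold lower in *Gcn2*-/- livers (log2 difference -3.88) and 5.65-fold lower in *Atf4*-/- livers (-2.44) than in WT, with separate intervals. Under ASNase the difference from WT was -3.49 in *Gcn2*-/- livers, which was called, and -1.15 in *Atf4*-/- livers, which was not. Of 7 adipose markers only *Fabp4* was eligible, and the others were under 3 FPKM in every group. *Fabp4* was at 42.4, 50.2, 19.3, 74.8, 18.5 and 33.6 FPKM. In *Gcn2*-/- livers it was called higher after ASNase (log2 difference 1.95, with 3.69% of all genes called), where *Cfd* was not higher. *Adipoq* was at 1.35, 1.96, 0.178, 0.0338, 0.341 and 0.350 FPKM, and *Retn* at 1.13, 0.850, 0.0464, 0.0184, 0.0333 and 0.155 FPKM. All 7 adipose markers were below their WT level in both deletion strains under PBS, and *Lep* was listed at 0 in 3 groups. Their summed level, 45.8, 54.2, 19.8, 74.9, 19.1 and 34.7 FPKM, was set mainly by *Fabp4*. Skeletal muscle markers also differed, with a summed level of 783 and 1119 FPKM in WT and 5.94 to 123 FPKM in the other groups. The part of other tissue in the *Cfd* values was not tested.

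**Figure D3:**
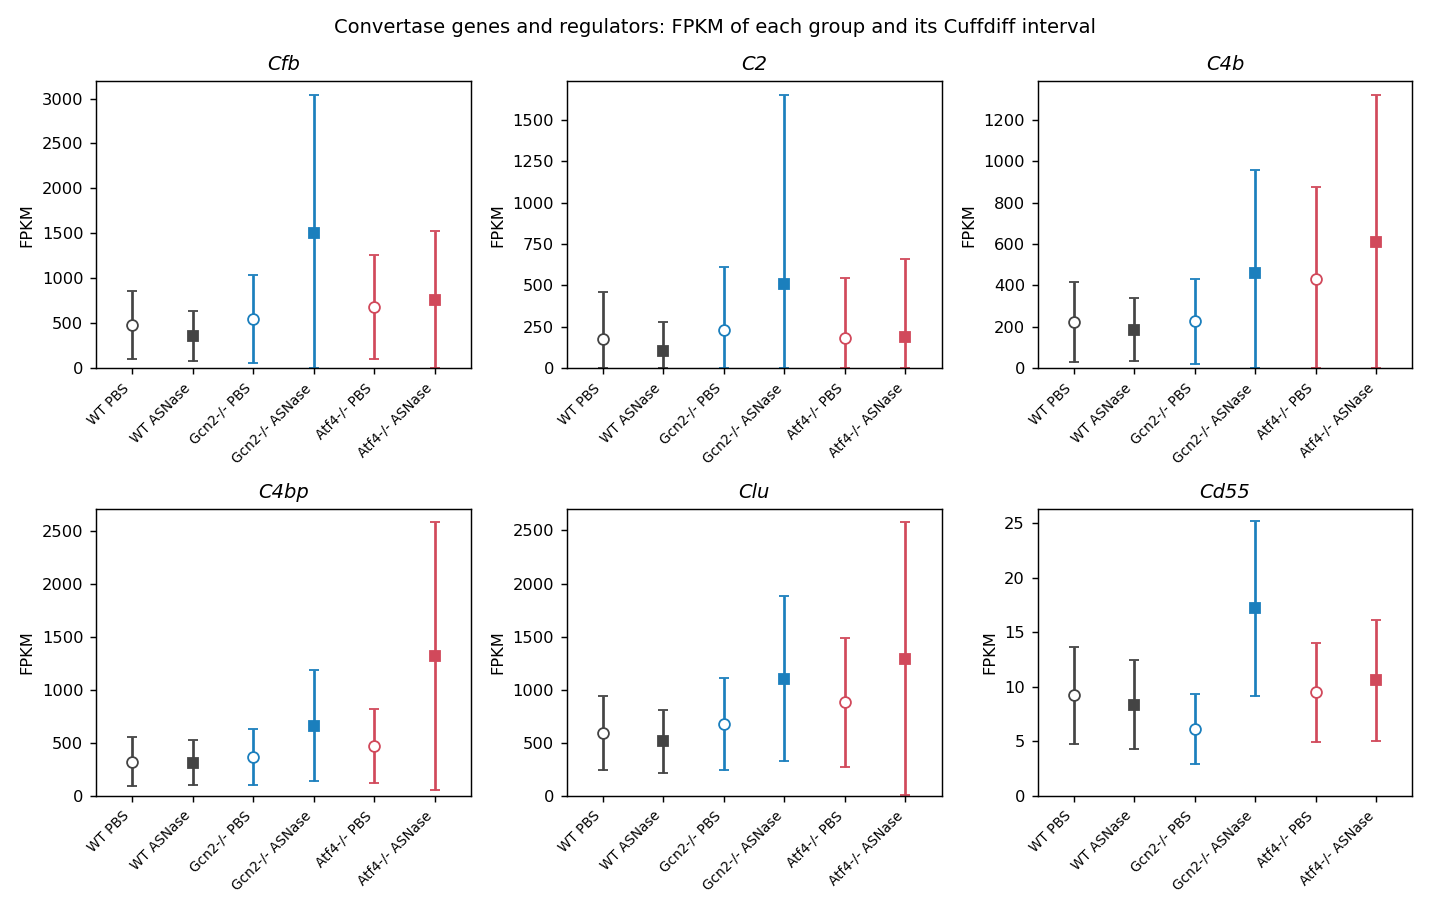
FPKM (vertical axis, from 0) of the convertase genes *Cfb*, *C2* and *C4b* and the regulators *C4bp*, *Clu* and *Cd55* in the 6 groups, with open circles for PBS and filled squares for ASNase. Each point is the single value of a group and each bar its Cuffdiff interval. *Cfb* and *C2* are highest in *Gcn2*-/- ASNase livers and *C4bp* in *Atf4*-/- ASNase livers, where the intervals are widest.

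Of the central components, *C4b* was at 223, 186, 226, 459, 431 and 612 FPKM. C4b forms the platform of the classical and lectin convertases. After ASNase *C4b* differed by -0.26 in WT, 1.02 in *Gcn2*-/- and 0.51 in *Atf4*-/- livers, and its intervals overlapped between all groups. *C4a*, its near copy, was at 9.79, 12.1, 12.4, 18.0, 19.8 and 17.0 FPKM. The transcripts share 16.5% of their windows, so the split of reads between them is uncertain. *Hc* was at 218, 189, 294, 345, 447 and 264 FPKM, highest in *Atf4*-/- PBS livers, and its lower bounds were between 0 and 5.59 FPKM. *C3* was at 2426 FPKM in WT PBS, 2537 in WT ASNase and 3643 in *Gcn2*-/- PBS livers, and each interval began at 0.

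Among the regulators *C4bp* had the widest range. Its product binds C4b in plasma and speeds the decay of the convertase. *C4bp* was at 323, 314, 370.3, 665, 469 and 1321 FPKM. The WT groups lay together at the low end, and the ASNase groups of both deletion strains held the 2 highest values. Its log2 difference after ASNase came to -0.04, 0.84 and 1.49 in WT, *Gcn2*-/- and *Atf4*-/- livers, and the interval in *Atf4*-/- ASNase livers, 55.7 to 2586 FPKM, overlapped all others. *Clu*, which encodes clusterin and blocks assembly of the pore, was at 593, 514, 677, 1107, 881 and 1292 FPKM, with differences of -0.21, 0.71 and 0.55. *Vtn*, which encodes vitronectin and also binds the forming pore, was at 941 to 1747 FPKM.

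Regulators on the cell surface did not move as 1 group. *Cd55* encodes decay-accelerating factor. It was at 9.23, 8.38, 6.17, 17.2, 9.50 and 10.6 FPKM, highest in *Gcn2*-/- ASNase livers, where it was 2.79-fold higher than under PBS (log2 difference 1.46). The intervals, 2.95 to 9.38 and 9.17 to 25.2 FPKM, overlapped by little. *Cd59a*, which keeps C9 from polymerising on host cells, was at 45.7, 37.5, 27.2, 15.7, 42.9 and 18.4 FPKM, with differences of -0.28, -0.79 and -1.22 after ASNase. *Cd46* was at 0.273 to 0.345 FPKM in all groups. *Cfp* encodes properdin, which stabilises the alternative convertase, and was at 12.3 to 22.7 FPKM. *Cfhr2*, which shares 14.7% of its windows with *Gm16332*, was at 280.4 to 402 FPKM.

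The anaphylatoxin receptors were near the limit of the table. *C5ar1*, the receptor of C5a on neutrophils and macrophages, was at 0.365, 0.225, 0.106, 1.02, 0.382 and 1.01 FPKM. *C3ar1* was at 0.862, 0.558, 0.492, 0.775, 0.907 and 0.528 FPKM. Neither was eligible. The intervals of *C5ar1* in *Gcn2*-/- livers, 0 to 0.222 FPKM under PBS and 0.368 to 1.68 FPKM under ASNase, did not overlap. The 12 neutrophil and monocyte markers had a summed level of 8.49 to 21.7 FPKM, and up to 3 of them were at 0 in a group.

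**Figure D4:**
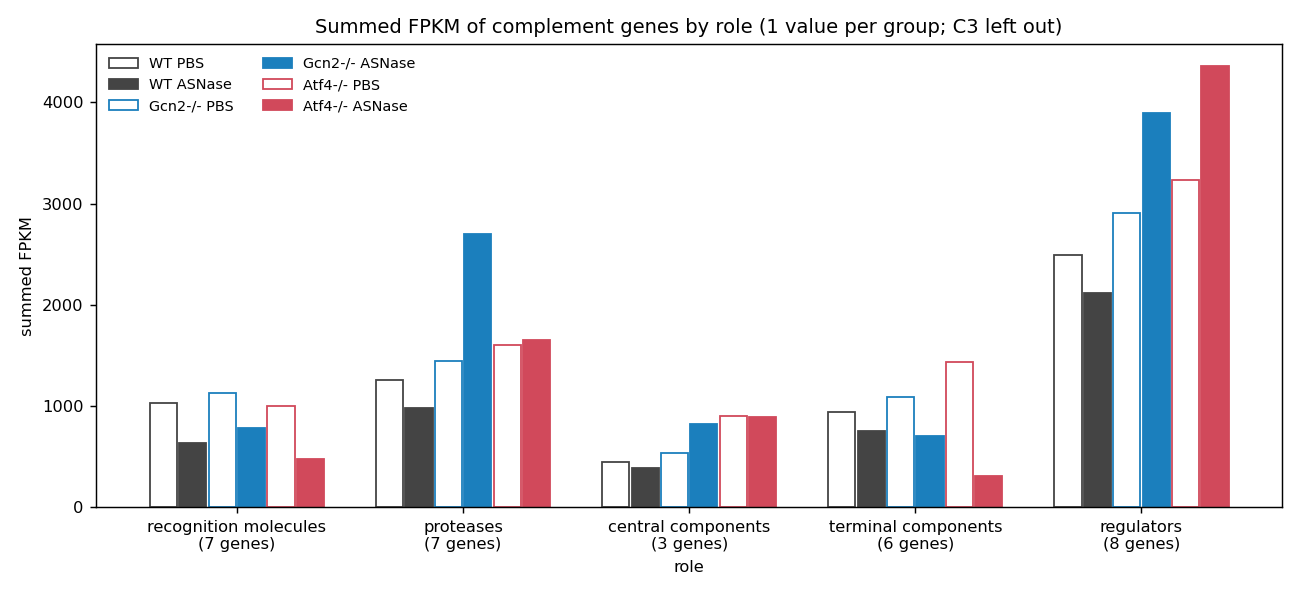
Summed FPKM (vertical axis, from 0) of the complement genes of each role in the 6 groups, with open bars for PBS and filled bars for ASNase. *C3* was left out for want of an estimate in 3 groups, and no error can be given for a sum. Terminal components are lowest at 313 FPKM and regulators highest at 4360 FPKM in the *Atf4*-/- ASNase group.

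Summed by role, terminal and recognition genes were lowest and regulators highest in *Atf4*-/- ASNase livers, and proteases were highest in *Gcn2*-/- ASNase livers. The 6 terminal genes summed to 942, 751, 1092, 701, 1439 and 313 FPKM, and the 7 recognition genes to 1028, 640, 1129, 780, 997 and 475 FPKM. The 8 regulators summed to 2494, 2118, 2906, 3899, 3236 and 4360 FPKM. The 7 proteases summed to 1255, 982, 1450, 2701, 1605 and 1650 FPKM. By gene, 13 of the 29 genes over 3 FPKM were lowest in WT ASNase livers and 11 in *Atf4*-/- ASNase livers, and 13 were highest in *Atf4*-/- PBS livers. Between the highest and lowest group 11 of the 29 differed over 3-fold and 9 under 2-fold.

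The difference between strains in the ASNase response was measured directly. A response was said to differ when the log2 differences were more than 1.5 apart and further apart than the combined error of the 4 values, the root of the summed squares of the distances from value to bound on the log2 scale. Between *Atf4*-/- and WT livers 4 of 29 complement genes differed, and 7.92% of all genes did. The difference was -3.58 for *C9* (combined error 1.81), -3.03 for *C6* (1.85), -2.22 for *C8g* (1.77) and -1.94 for *Colec11* (1.30). Between *Atf4*-/- and *Gcn2*-/- livers 3 of 28 differed (4.58% of all genes), by -3.29 for *C9*, -3.11 for *C6* and -1.85 for *C8g*. Between *Gcn2*-/- and WT livers *Cd55* was the 1 of 29 that differed (5.42% of all genes), by 1.60 with a combined error of 1.39, and it no longer passed with a pseudocount of 1. *C2* and *Cfb* differed there by 1.88 and 1.87, within their error.

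Under PBS *Cfd* was the only gene called in either deletion strain. In *Gcn2*-/- livers 1 of 30 genes was called (1.04% of all genes), 0 were over 2-fold higher (1.73%) and 2, *Cfd* and *Fcna*, were over 2-fold lower (2.32%). The median log2 difference was 0.07, and that of all genes 0.06. In *Atf4*-/- livers 1 of 29 was called (1.12%) and 1 was over 2-fold lower (2.07%). A further 5, *C4a*, *Hc*, *C6*, *C8a* and *C9*, were over 2-fold higher (1.57%), by 1.01, 1.04, 1.51, 1.15 and 1.01 on the log2 scale. None of the 5 had separate intervals. The *Atf4*-/- PBS group held 2 males of 3 and the WT PBS group 1 of 3, and the part of sex was not tested. The median was 0.21, and that of all genes 0.00.

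**Figure D5:**
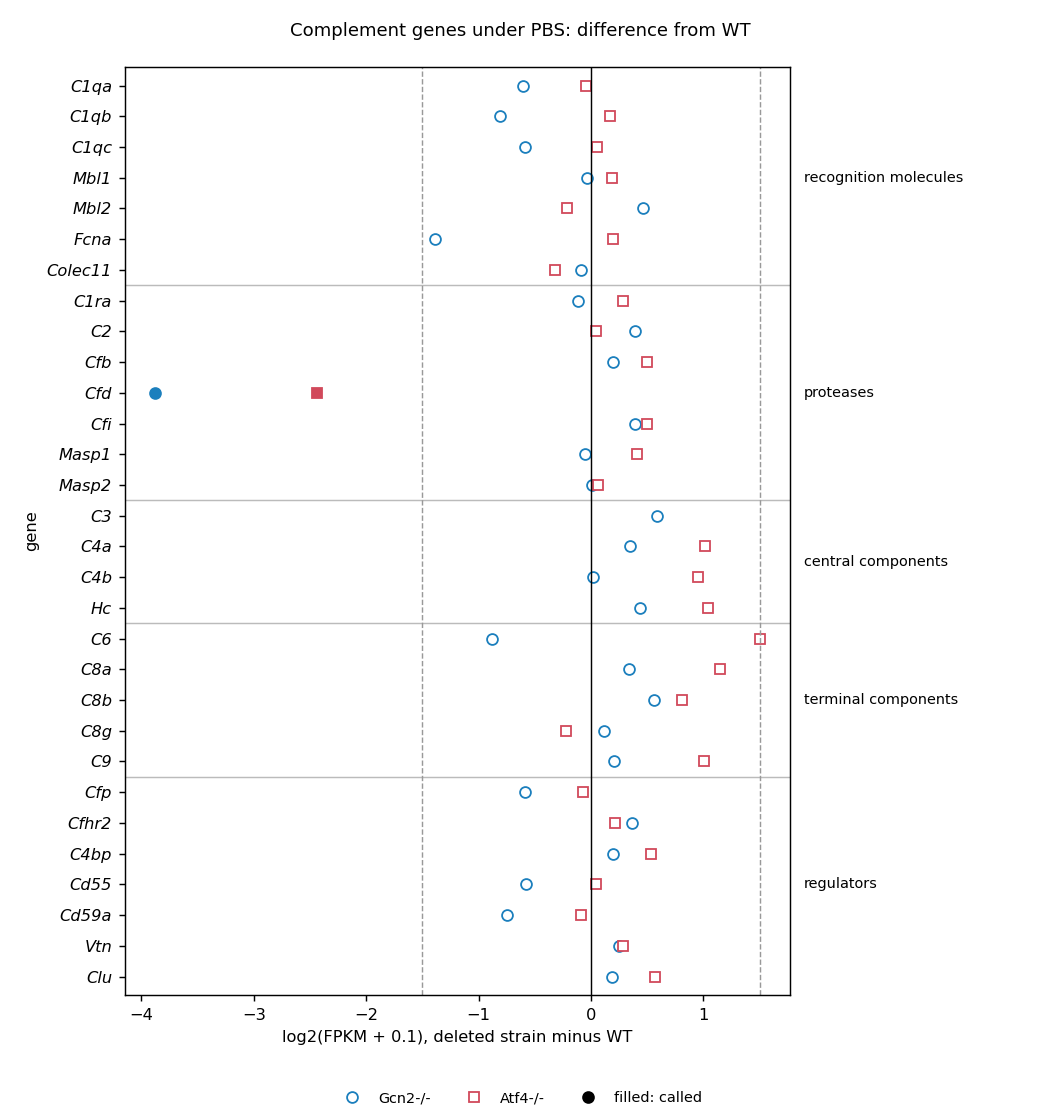
Difference in log2(FPKM + 0.1) from WT under PBS (horizontal axis) for each eligible complement gene, ordered by role, in *Gcn2*-/- (circles) and *Atf4*-/- mice (squares). Filled points were called, and dashed lines mark differences of -1.5 and 1.5. *Cfd* is the only filled gene, at -3.88 in *Gcn2*-/- and -2.44 in *Atf4*-/- livers.

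Under ASNase each deletion strain was also set against WT, with the same WT livers in both comparisons. In *Gcn2*-/- livers 1 of 29 genes, *Cfd*, was called (4.41% of all genes), 6 were over 2-fold higher (6.83%) and 4 over 2-fold lower (8.00%). The 6 were *C2* at 2.28, *Cfb* at 2.07, *C4b* at 1.31, *Clu* at 1.11, *C4bp* at 1.08 and *Cd55* at 1.03. The 4 were *Cfd* at -3.49, *Cd59a* at -1.25, *Colec11* at -1.17 and *Fcna* at -1.08. In *Atf4*-/- livers 3 of 29 were called, all lower (8.25% of all genes in either direction). *C9* was 5.98-fold lower than in WT (log2 difference -2.57), *C8g* 5.45-fold lower (-2.44) and *Colec11* 4.87-fold lower (-2.26). Those over 2-fold lower numbered 6 (14.1%), with *C6* at -1.53, *Cfd* at -1.15 and *Cd59a* at -1.02 beside the 3 called, and those over 2-fold higher 4 (10.5%). The 4 were *C4bp* at 2.07, *C4b* at 1.72, *Clu* at 1.33 and *Cfb* at 1.07, with overlapping intervals.

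Further complement genes outside the 34 were followed by a list of 34 names, of which 26 were in the table. None of 17 eligible ones was called after ASNase in WT (0.881% of all genes), 3 of 18 were called in *Gcn2*-/- (3.69%) and 2 of 19 in *Atf4*-/- livers (7.37%), the last a share near that of all genes. *Itgam*, a chain of complement receptor 3 on neutrophils and macrophages, was at 0.530, 0.362, 0.457, 5.83, 0.916 and 4.10 FPKM and rose in *Gcn2*-/- livers by 3.41 on the log2 scale, as did *Itgb2* by 1.65 and *Thbd*, which encodes thrombomodulin, by 1.78. The regulators *Cd59b* and *Susd4* fell in *Atf4*-/- livers, with log2 differences of -3.27 for *Cd59b* and -3.04 for *Susd4*. *Serping1*, which encodes C1 inhibitor, was at 405, 325, 480.2, 748, 549 and 629.9 FPKM, with overlapping intervals in all comparisons.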

How the data were processed

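Per the labels and the study's methods, polyadenylated RNA from 18 livers was sequenced, and the authors aligned reads to mm10 with TopHat, built a merged transcript set (Cufflinks, Cuffmerge) and quantified it by Cuffdiff. The FPKM values the authors deposited are 1 per group of 3 mice, each with Cuffdiff's interval and status. Read counts behind a value and values per library were not used here, so depth per gene is unknown and the interval served as the error. Every value column carries the name of a group, and values with a status other than OK (160, in 45 genes) were left out.

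Groups were formed from the labels. Differences of log2(FPKM + 0.1) were computed in Python 3.11.15 with pandas 2.3.3, with the eligibility and call rules given above. These take the study's limits of 3 FPKM and 1.5 on the log2 scale. The study also required a false discovery rate (q value) under 0.1, and separate intervals stand in for it here. Counts of genes called are therefore not those of the study. The linear models planned on values of single libraries could not be fitted to such a table. Gene positions and shared windows came from GENCODE (GRCm38) and promoters from RefSeq. Every gene of the 34 was accounted for, with values in each group for genes called or over 2-fold apart and for at least 1 gene of each role. The genes and lists were chosen with earlier results of these data known. The call rule was tested on simulated data. Alternatives were pseudocounts of 1 and 0.01, a minimum of 1 FPKM or none, a log2 limit of 1, a combined interval, no interval, median-ratio scaling and values of any status. The last could not bring *C3* back, because its values without an estimate are listed at 0 and stay ineligible. The values of 1 further complement gene are not reported here.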

Additional observations from a re-analysis of the deposited data

Results flagged for a closer look

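The ASNase response of 5 complement genes differed between strains by more than 1.5 on the log2 scale and by more than the combined error of the 4 values. With 1 value per group the difference has no replicate test. The response of *Atf4*-/- livers minus that of WT livers was -3.58 for *C9*, -3.03 for *C6*, -2.22 for *C8g* and -1.94 for *Colec11*. Against *Gcn2*-/- livers, the response of *Atf4*-/- livers differed by -3.29 for *C9*, -3.11 for *C6* and -1.85 for *C8g*. *Cd55* differed by 1.60 between *Gcn2*-/- and WT livers, and no longer met these limits with a pseudocount of 1.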

How the results depend on the processing

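No paired analysis was possible because the table gives 1 value per group, and for the same reason no mouse could be left out in turn. Of 110 recomputed counts and medians, 99 stayed within 1.5 times the reported count or within 0.1 of the reported median. Those with values of any status are among the 99 but could not change, since *C3* is listed at 0 where it has no estimate. All 88 recomputed log2 differences of named genes, with a pseudocount of 1 or median-ratio scaling, kept their direction and call. Some no longer passed 2-fold. With a pseudocount of 1 these were *C4a* in *Atf4*-/- PBS livers against WT (0.95) and 3 differences from WT under ASNase. The 3 were *Cd55* in *Gcn2*-/- livers (0.96) and *Cfd* (-0.96) and *Cd59a* (-0.99) in *Atf4*-/- livers. With median-ratio scaling they were the same *Cd55* difference (0.98) and *C9* in *Atf4*-/- PBS livers against WT (0.997). With a combined interval, or with none, 2 genes rather than 1 were called in *Atf4*-/- PBS livers against WT (*C6* was added). Under ASNase, *Gcn2*-/- livers against WT gave 2 with a combined interval and 3 without the interval condition (*Cfb*, then *C2*), and *Atf4*-/- livers against WT gave 5 and 6 (*C6* and *C4bp*, then *C4b*). A minimum of 1 FPKM, or none, made 1 gene called after ASNase in *Gcn2*-/- livers, *C5ar1*. The count of responses that differ between *Gcn2*-/- and WT livers, 1 as reported (*Cd55*), was 0 with a pseudocount of 1, 2 with a minimum of 1 FPKM and 3 with a log2 limit of 1. *C6*, *C8g*, *C9* and *Colec11* were called after ASNase in *Atf4*-/- livers under all 9 settings, of which values of any status could not differ for these genes. Intervals this wide limit what can be seen to large differences, and 22 of 173 member values over 3 FPKM had a lower bound of 0.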

Other observations

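Acute phase proteins, secreted by hepatocytes in inflammation, were followed by a list of 22 genes. After ASNase 16 of 16 eligible ones were over 2-fold higher in *Gcn2*-/- livers (6.35% of all genes) and 14 of 16 in *Atf4*-/- livers (10.9%), with median log2 differences of 2.60 and 2.31, and 0 of 20 in WT livers (2.04%). Few had separate intervals: 4 of 16 were called in *Gcn2*-/- livers (3.69% of all genes) and 3 of 16 in *Atf4*-/- livers (7.37%). *Lcn2*, which encodes lipocalin-2, was at 10.1, 10.5, 472, 9990, 151 and 8691 FPKM. Under PBS 8 of 20 were already over 2-fold above WT in *Gcn2*-/- livers (1.73% of all genes) and 11 of 21 in *Atf4*-/- livers (1.57%).

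Of 12 liver transcription factors, *Cebpd* was the 1 called after ASNase in *Gcn2*-/- (3.69% of all genes) and in *Atf4*-/- livers (7.37%), a count near that background. It was at 5.11, 6.42, 3.35, 25.6, 6.80 and 37.1 FPKM, while *Cebpa* was at 138, 149, 192, 79.9, 151 and 64.9 FPKM and *Hnf4a* at 145 to 213 FPKM. *Socs3*, a feedback inhibitor of cytokine signalling, was at 3.36, 2.57, 4.93, 26.8, 7.23 and 56.6 FPKM.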
